A study of Mus musculus with 9 samples.

Results

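Genes that specify primordial germ cells (PGCs) or mark their surface were followed through 3 kinds of sorted mouse cells measured on 1-colour Agilent arrays. The 10 genes were Prdm1, Prdm14, Tfap2c, T, Bmp4, Kit, Cxcr4, Itgb3, Alpl and Fut4. They were found through the RefSeq accession given for each probe, which led to 13 probes for 10 of the 32450 genes and unnamed probes on the array. All 10 passed the filter on dim signals, as did 20443 features in all. The 3 groups had 3 arrays each, stated to be biological replicates. The Max knockdown group was the VV3 line of male 129SV mouse ES cells, in which the Vasa (Ddx4) promoter drives a Venus reporter. It had received siRNA against Max, and 3 days later live single cells positive for Vasa::Venus were sorted. The second group was PGCs, sorted at E13.5 by their GFP from male genital ridges; the embryos carried the Oct4ΔPE-GFP transgene on an MCH x C57BL6/J background. The control group was VV3 ES cells given the non-silencing AllStars siRNA and sorted 3 days later as live single cells without a Venus gate. Both ES groups come from 1 cell line and carry the same reporter, grown with LIF in medium of 14% KSR and 1% FBS. Loss of Max and selection for Venus cannot be told apart in the first group, and cell type, strain and sort differ together in the second.

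In the mouse embryo, BMP4 from extra-embryonic ectoderm acts on the epiblast, where WNT and BMP signals switch on the T-box factor T (Brachyury). T activates Prdm1 and Prdm14, and together with Tfap2c these encode the 3 transcriptional regulators that establish PGC fate. PRDM1 (BLIMP1) represses somatic genes, PRDM14 supports pluripotency and low DNA methylation, and TFAP2C (AP-2γ) acts downstream of PRDM1. PGCs then migrate to the genital ridges, guided by KIT and CXCR4, the receptors for the KIT ligand and the chemokine CXCL12. Tissue-nonspecific alkaline phosphatase (Alpl), the Lewis X carbohydrate SSEA-1 made by fucosyltransferases such as FUT4, and integrin β3 (Itgb3, CD61) are the markers by which PGCs are stained or sorted. MAX is the dimer partner of MYC proteins and of MGA, and such dimers bind the E-box CACGTG.

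The 250 bases before the transcription start are shown for the member with that E-box (Bmp4), for the only member that passed the test in Max knockdown cells (Fut4), and for a regulator and a receptor that were higher in PGCs (Prdm1 and Cxcr4). They were taken from the RefSeq promoter table of build GRCm38.p6, all on the minus strand, at chr14:46390670-46390919 for Bmp4, chr9:14752123-14752372 for Fut4, chr10:44458749-44458998 for Prdm1 and chr1:128592300-128592549 for Cxcr4. Each runs 5′ to 3′ in the direction of the gene, and capitals mark every match to the general E-box CANNTG.
Bmp4: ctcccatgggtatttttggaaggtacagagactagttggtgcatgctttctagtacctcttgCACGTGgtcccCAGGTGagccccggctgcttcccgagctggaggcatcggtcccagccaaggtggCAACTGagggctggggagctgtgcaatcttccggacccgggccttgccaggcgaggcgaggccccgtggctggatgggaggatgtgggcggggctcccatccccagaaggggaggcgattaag
Fut4: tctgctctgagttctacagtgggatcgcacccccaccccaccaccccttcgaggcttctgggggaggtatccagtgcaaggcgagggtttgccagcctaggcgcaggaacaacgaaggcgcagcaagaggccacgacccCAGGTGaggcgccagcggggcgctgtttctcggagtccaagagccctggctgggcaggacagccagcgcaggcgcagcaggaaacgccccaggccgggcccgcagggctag
Prdm1: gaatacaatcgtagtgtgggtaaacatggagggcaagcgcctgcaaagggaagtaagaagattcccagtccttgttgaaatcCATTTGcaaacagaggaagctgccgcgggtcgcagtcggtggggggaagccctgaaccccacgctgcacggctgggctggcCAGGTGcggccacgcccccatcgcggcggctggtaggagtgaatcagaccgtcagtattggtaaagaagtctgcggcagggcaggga
Cxcr4: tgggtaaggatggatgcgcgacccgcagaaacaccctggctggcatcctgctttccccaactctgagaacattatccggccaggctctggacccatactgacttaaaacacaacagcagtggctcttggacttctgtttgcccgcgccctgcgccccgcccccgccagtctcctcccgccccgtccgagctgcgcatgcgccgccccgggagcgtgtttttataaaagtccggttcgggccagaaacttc

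The table matched 7 of the 10 members with 9 promoters. Both strands were searched for CACGTG, for the T-box element AGGTGTGA and for the E2F site GGCGGGAA. CACGTG was found in 1 member, Bmp4, with its first base at position -188 from the start. Of 32851 promoters of the same length in the table, 6.02% held CACGTG. Neither of the other motifs was found in these windows, and they occurred in 1.12% and 1.86% of all promoters. CANNTG, which includes CACGTG, was found in 5 of the 7 members and in 66.2% of all promoters. The Cxcr4 window held no CANNTG and 19 CG pairs, against 11 in Bmp4, 16 in Fut4, 15 in Prdm1 and a median of 6 over all promoters.

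Levels below are log2 signals relative to the 75th percentile of the array, so 0 is the brightness that exceeds 75% of its probes. A level can be compared between groups for 1 gene, not between genes. Between 58.2% and 67.57% of spots were well above background on each array, and none was saturated. Correlations across probes were 0.991 to 0.995 within groups, 0.966 to 0.974 between Max knockdown and control arrays, and 0.869 to 0.882 between PGC and control arrays. Max itself fell to 0.59, 0.83 and 1.13 in Max knockdown cells, against 2.84, 2.74 and 2.85 in control cells (3.89-fold lower, limma adjusted p = 2.9e-05). Ddx4 was 6.22-fold higher in Max knockdown than in control cells, which the Venus gate selected for, while Pou5f1 (Oct4) differed by 0.04 (adjusted p = 0.82). All 10 germ cell markers were well above background on every PGC array, 9 on every Max knockdown array and 8 on every control array. All 8 ES cell markers were above it on every control and every PGC array, and 7 on every Max knockdown array. Replicates 1 and 2 of both ES groups shared a slide, as did Max knockdown replicate 4 and control replicate 3. PGC arrays lay on slides of their own, so slide and group cannot be told apart in the PGC comparisons.

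**Figure D1:**
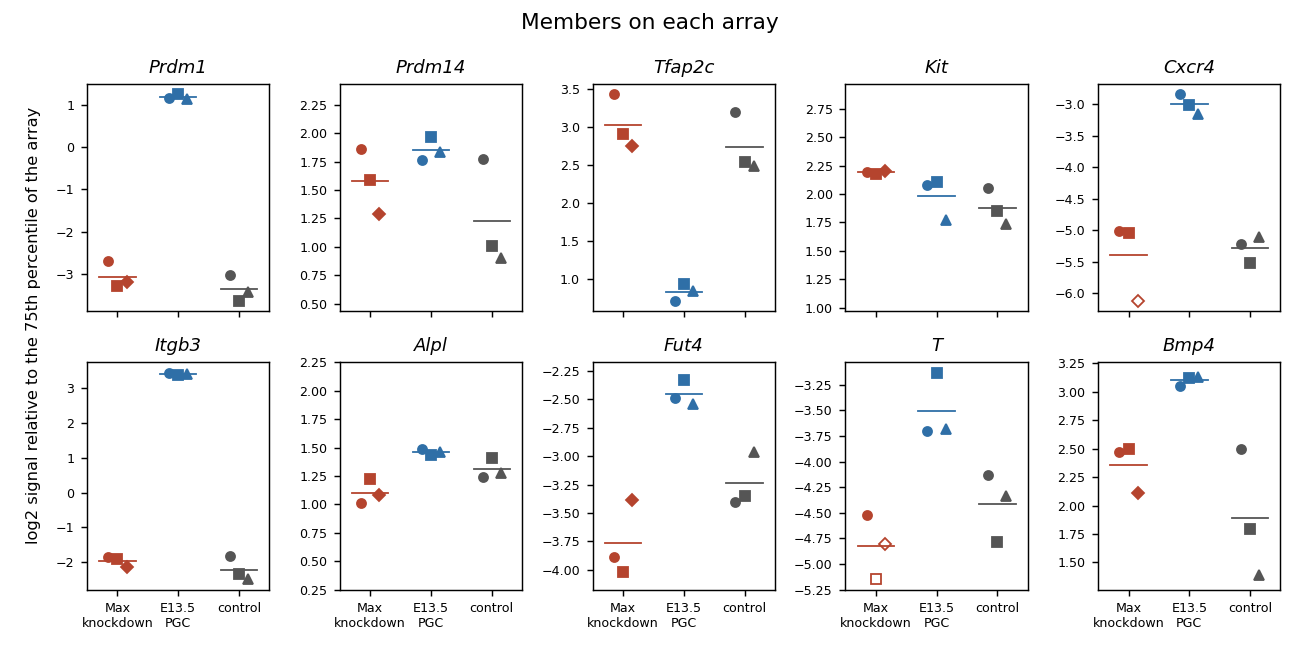
Level of each of the 10 genes on each array, as log2 signal relative to the 75th percentile of the array, for Max knockdown ES cells, E13.5 PGCs and control ES cells (horizontal lines, group means; marker shapes, replicate numbers; open symbols, not well above background). Prdm1, Itgb3 and Cxcr4 were higher on all 3 PGC arrays than on any ES array, as were, by smaller margins, Bmp4, T, Fut4 and Alpl. Tfap2c was lower on all 3, while the 2 ES groups overlap for 8 of the 10 genes.

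The first comparison asked which of the genes differ in Venus-positive ES cells after Max knockdown. Of the 10 members, 1 passed the test, Fut4, which was lower, and 0 were higher. Over all features tested, 40.1% passed, 18.2% higher and 21.9% lower. The groups did not overlap for 2 members, Kit (higher) and Alpl (lower), against 54.1% of all features (23.4% higher and 30.7% lower). In bulk RNA such as this, fewer cells of a type and less RNA per cell cannot be told apart.

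Among the 3 regulators, Prdm1 was at -2.69, -3.29 and -3.19 in Max knockdown cells, against -3.03, -3.63 and -3.42 in control cells. These ranges overlapped, and the difference of 0.31 (SE 0.19, 95% interval -0.13 to 0.74) did not pass the test (adjusted p = 0.24). Prdm14 was at 1.86, 1.59 and 1.29 in Max knockdown cells, against 1.77, 1.01 and 0.90 in control cells. Control replicate 1 lay above 2 of the Max knockdown arrays, and the difference was 0.35 (SE 0.23, 95% interval -0.18 to 0.89, adjusted p = 0.27). Tfap2c was at 3.43, 2.90 and 2.75 in Max knockdown cells, against 3.19, 2.53 and 2.48 in control cells. Again control replicate 1 stood within the Max knockdown range, and the difference of 0.29 (SE 0.23, 95% interval -0.22 to 0.81) did not pass (adjusted p = 0.34). The upper ends of these 3 intervals all lie below a 2-fold increase.

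The inducers gave no call either. Bmp4 was at 2.47, 2.50 and 2.11 in Max knockdown cells, against 2.50, 1.79 and 1.39 in control cells, a difference of 0.47 (SE 0.25, adjusted p = 0.17). Control replicate 1 matched the highest Max knockdown array. Within the slide that holds replicates 1 and 2 the difference was 0.34, and on the slide of Max knockdown replicate 4 and control replicate 3 it was 0.72. T was at -4.52, -5.15 and -4.80 in Max knockdown cells, against -4.13, -4.78 and -4.34 in control cells. It was well above background on 1 of 3 Max knockdown arrays and on 3 of 3 control arrays, and the difference of -0.41 (SE 0.23) did not pass (adjusted p = 0.20).

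Of the receptors, Kit was at 2.19, 2.18 and 2.20 in Max knockdown cells, against 2.05, 1.85 and 1.74 in control cells. All Max knockdown arrays lay above all control arrays, by 0.31 on average (SE 0.12, 95% interval 0.04 to 0.58), with an adjusted p of 0.064. The call is made without control replicate 1 (0.40, adjusted p = 0.041) or without PGC replicate 3 (adjusted p = 0.04). Cxcr4 was at -5.02, -5.05 and -6.12 in Max knockdown cells, against -5.22, -5.52 and -5.10 in control cells. Max knockdown replicate 4 was not well above background and set the sign: the difference was -0.12 (SE 0.28, adjusted p = 0.77) with it and 0.24 without it.

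For the integrin chain Itgb3, levels were -1.86, -1.92 and -2.15 in Max knockdown cells, against -1.83, -2.34 and -2.50 in control cells. The groups overlapped, with a difference of 0.24 (SE 0.17, adjusted p = 0.29). Alpl was at 1.01, 1.22 and 1.08 in Max knockdown cells, against 1.24, 1.41 and 1.28 in control cells. The groups did not overlap, yet the difference was small, -0.21 (SE 0.09, adjusted p = 0.092).

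Fut4 fell to -3.89, -4.02 and -3.39 in Max knockdown cells, against -3.40, -3.35 and -2.96 in control cells. The difference was -0.53 (SE 0.18, 95% interval -0.95 to -0.12, 1.45-fold lower, adjusted p = 0.046), although Max knockdown replicate 4 lay within the control range. The call was lost on leaving out any one of the 9 arrays other than Max knockdown replicate 4 (adjusted p from 0.055 to 0.15, differences from -0.61 to -0.39). With slide as a block the adjusted p was 0.0042, with differences of -0.58 and -0.43 on the 2 slides. With only the 2 ES groups in the fit, the Fut4 call was lost (adjusted p = 0.073). A second Fut4 probe was well above background on 2 PGC arrays, 1 control array and no Max knockdown array, and was not tested. Under another background correction, normexp on median signals, Tfap2c, Kit, Cxcr4, Fut4 and T changed sign (differences of -0.08, -0.02, 1.05, 0.69 and 0.93) and no member passed.

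Marker lists moved between the ES groups as well, where 18.2% of all features tested were higher and 21.9% lower in Max knockdown cells. The summed linear level of 10 germ cell markers, in units of the 75th percentile signal, was 66.2 to 72.1 in Max knockdown cells and 44.3 to 57.5 in control cells, with 6 of 10 higher and 0 lower. For 8 ES cell markers it was 101 to 113 in Max knockdown cells and 76.4 to 92.2 in control cells (3 higher and 1 lower). For 8 fibroblast markers, which feeder cells express, it was 1.64 to 1.91 in Max knockdown cells and 3.94 to 6.31 in control cells, with 5 of 6 tested lower and 0 higher. The 6 primitive endoderm markers summed to 1.04 to 1.51 in Max knockdown cells and 1.51 to 2.49 in control cells, with 3 lower and 0 higher. The 6 mesoderm markers summed to 0.172 to 0.205 in Max knockdown cells and 0.371 to 0.424 in control cells, with both of those tested lower. Their part in the values above was not tested.

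**Figure D2:**
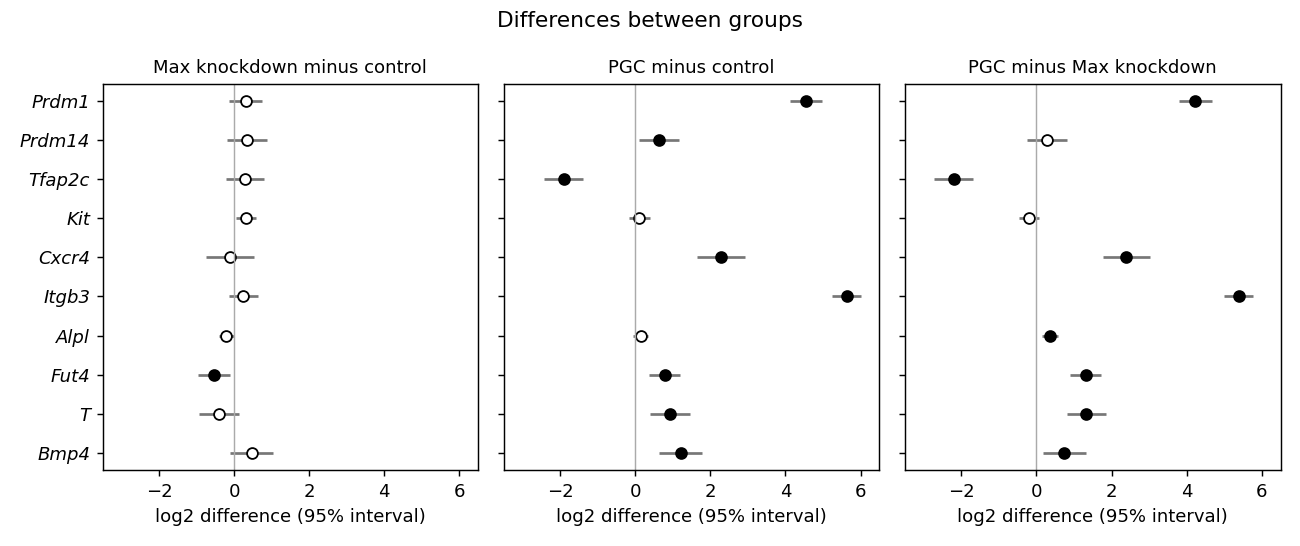
Log2 difference of each of the 10 genes with its 95% interval for Max knockdown minus control, PGC minus control and PGC minus Max knockdown (filled, limma adjusted p under 0.05; open, not). Fut4 is the filled point among Max knockdown differences, and 8 of 10 are filled in each PGC comparison.

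The second comparison set PGCs against control ES cells. Of the 10 members, 8 passed the test: Prdm1, Prdm14, Cxcr4, Itgb3, Fut4, T and Bmp4 were higher in PGCs and Tfap2c was lower. Over all features tested, 75.6% passed, 43.2% higher and 32.4% lower, so calls are read here beside their sizes. At least 2-fold higher were 4 members (19.8% of all features), and 1 was at least 2-fold lower (20.2%). The sign of small differences depended on the scale. Relative to the spike-in transcripts, the 75th percentile signal was -1.39, -2.35 and -2.17 (log2) on PGC arrays, against -0.60, -0.63 and -1.83 on control arrays, so the groups overlapped. With this scaling the median of all features shifted by -0.95, and 1161 of 8623 calls were higher, against 8837 of 15451 (57.2%) with the 75th percentile.

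Itgb3 showed the widest gap of the 10, at 3.45, 3.37 and 3.40 in PGCs, against -1.83, -2.34 and -2.50 in control cells. All PGC arrays were far above every control array, and the difference of 5.63 (SE 0.17, adjusted p = 2.5e-08) is 49.4-fold. A second Itgb3 probe was at -0.70, -1.08 and -0.59 in PGCs, against -7.35, -7.48 and -7.81 in control cells. It was not well above background on any ES array, so its signal in PGCs was at least 31.7-fold higher than in control cells. This probe passed the filter through the PGC arrays alone, so its direction is not separate support for the first.

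Prdm1 was at 1.16, 1.25 and 1.13 in PGCs, against -3.03, -3.63 and -3.42 in control cells. All 3 PGC arrays were far above the control range, by 4.54 on average (SE 0.19, 23.3-fold, adjusted p = 1.3e-07). Prdm14, the other PR-domain regulator, was at 1.76, 1.97 and 1.83 in PGCs, against 1.77, 1.01 and 0.90 in control cells. Control replicate 1 lay at the level of the lowest PGC array, and the difference of 0.63 (SE 0.23, 1.54-fold) passed narrowly (adjusted p = 0.036). That call was lost without Max knockdown replicate 2, control replicate 2 or 3, or any one PGC array (adjusted p from 0.052 to 0.12), and the difference was -0.33 on the spike-in scale.

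Tfap2c went the other way, at 0.71, 0.93 and 0.84 in PGCs, against 3.19, 2.53 and 2.48 in control cells. No PGC array reached the control range, and Tfap2c was 3.74-fold lower (log2 difference -1.90, SE 0.23, adjusted p = 6.8e-05). It was lower on the spike-in scale too, by a log2 difference of -2.86.

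Bmp4 was at 3.05, 3.12 and 3.13 in PGCs, against 2.50, 1.79 and 1.39 in control cells. The groups did not overlap, and Bmp4 was 2.31-fold higher in PGCs (log2 difference 1.21, SE 0.25, adjusted p = 0.0021). On the spike-in scale the difference was 0.26 (adjusted p = 0.72), and a second Bmp4 probe was not well above background on any of the 9 arrays. With the mean of both probes it was 0.63 (adjusted p = 0.096). T was at -3.70, -3.13 and -3.68 in PGCs, against -4.13, -4.78 and -4.34 in control cells. PGC replicate 2 was the highest, and the difference of 0.92 (SE 0.23, adjusted p = 0.0061) became -0.04 on the spike-in scale.

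Cxcr4 was at -2.84, -3.01 and -3.16 in PGCs, against -5.22, -5.52 and -5.10 in control cells. The groups were well separated, with Cxcr4 4.84-fold higher in PGCs (log2 difference 2.28, SE 0.28, adjusted p = 8e-05). Kit was at 2.08, 2.11 and 1.77 in PGCs, against 2.05, 1.85 and 1.74 in control cells. The ranges overlapped and the difference of 0.11 (SE 0.12, 95% interval -0.16 to 0.38) did not pass (adjusted p = 0.42). Its sign was negative under quantile and spike-in scaling (-0.04 and -0.84).

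Alpl was at 1.49, 1.43 and 1.46 in PGCs, against 1.24, 1.41 and 1.28 in control cells. The groups did not overlap, but the difference of 0.15 (SE 0.09, 95% interval -0.05 to 0.35) did not pass (adjusted p = 0.15) and was -0.80 on the spike-in scale. Fut4 was at -2.49, -2.33 and -2.54 in PGCs, against -3.40, -3.35 and -2.96 in control cells. It was 1.72-fold higher in PGCs (log2 difference 0.79, SE 0.18, adjusted p = 0.0038), and the spike-in scale gave -0.17. Normexp on median signals ended the calls of Prdm14, Cxcr4, Fut4 and T (differences of 0.60, 1.07, 0.52 and 0.58), and the mean of probes that of Fut4 (1.08, adjusted p = 0.054).

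**Figure D3:**
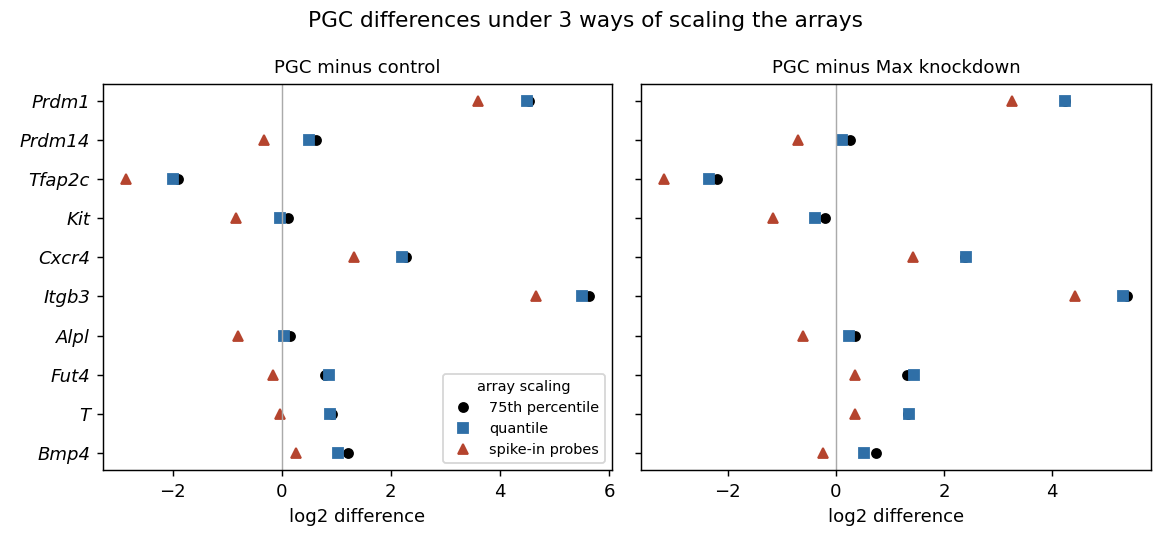
Log2 differences of the 10 genes for PGC minus control and PGC minus Max knockdown under 3 ways of scaling the arrays (circles, 75th percentile; squares, quantile; triangles, spike-in probes). Spike-in values lie to the left throughout: Prdm1, Cxcr4 and Itgb3 stay above 0 and Tfap2c below 0 under all 3 in both comparisons.

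The gate for Oct4ΔPE-GFP could admit other cells of the genital ridge, and some of these also express Kit, Cxcr4 or Itgb3. Marker counts below stand beside 43.2% of all features higher and 32.4% lower in PGCs than in control cells. The summed linear level of 12 gonadal somatic markers was 3.26 to 6.05 in PGCs and 3.06 to 3.78 in control cells, with 6 of 10 tested higher and 2 lower. Of the 12, 8 were well above background on all PGC arrays, against 7 on all Max knockdown arrays and 9 on all control arrays. None was below it on every PGC array, against 4 on every Max knockdown array and 3 on every control array. Amh, a Sertoli cell product, was well above background on all 3 PGC arrays and on no ES array. For 11 blood and endothelial markers the sum was 2.86 to 4.68 in PGCs and 2.19 to 3.09 in control cells, with 1 of 5 tested higher and 2 lower. Of the 11, 3 were well above background on all PGC arrays (Kdr, Csf1r and Hba-a1) and 4 on none, among them Tie1, Tek and Emcn, against 5 on all and 5 on none of the control arrays. Ptprc and Hbb-y were above it on 2 PGC arrays, and Cdh5 and Lyve1 on 1. The haemoglobin gene Hba-a1 was at 0.47, -0.21 and -1.15 in PGCs, against -4.36, -3.99 and -4.21 in control cells. The 6 primitive endoderm markers summed to 0.269 to 0.281 in PGCs and 1.51 to 2.49 in control cells, with 0 higher and 5 lower. What these cells contributed to the members' values was not tested.

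Set against Max knockdown cells, PGCs differed in the test at 8 of the 10 members as well (7 higher, 1 lower), against 76.3% of all features (44.9% higher and 31.4% lower). Differences of 2-fold or more were seen for 5 higher members (20.5% of all features) and for 1 lower one (19.7%). The comparisons with PGCs share the PGC arrays, so they are not independent. Prdm1 was 18.8-fold higher in PGCs than in Max knockdown cells (log2 difference 4.23, SE 0.19, adjusted p = 2.1e-07). For Itgb3 the PGC level was 41.8-fold higher (log2 difference 5.39, SE 0.17, adjusted p = 3.3e-08) by the brighter probe and at least 24.6-fold by the other. Cxcr4 was 5.26-fold higher in PGCs (log2 difference 2.39, SE 0.28, adjusted p = 5.9e-05). Tfap2c was 4.59-fold lower (log2 difference -2.20, SE 0.23, adjusted p = 2.8e-05). For these 4 genes the PGC levels lay outside the range of both ES groups, whose own differences did not pass the test. The PGC levels of Bmp4, T, Fut4 and Alpl also lay outside that range, by smaller margins.

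Fut4 was 2.49-fold higher in PGCs than in Max knockdown cells (log2 difference 1.32, SE 0.18, adjusted p = 0.00017). T was 2.51-fold higher (log2 difference 1.33, SE 0.23, adjusted p = 0.00074). On the spike-in scale the differences were 0.35 and 0.36, with no call. With normexp on median signals Cxcr4 (0.02), Fut4 (-0.17) and T (-0.35) had no call either. Alpl was 0.36 higher (SE 0.09, adjusted p = 0.005), with -0.61 on the spike-in scale and no call with normexp (0.53, adjusted p = 0.13). Bmp4 was 0.74 higher (SE 0.25, adjusted p = 0.024), but -0.23 on the spike-in scale, and the call was lost without Max knockdown replicate 4, PGC replicate 2 or PGC replicate 3 (adjusted p of 0.077, 0.059 and 0.056). It was also lost with quantile normalization (0.52, adjusted p = 0.094), with the mean of its probes (0.30, adjusted p = 0.4) and with the replicate number as a block (adjusted p = 0.055). Kit (-0.20, SE 0.12, 95% interval -0.47 to 0.06, adjusted p = 0.14) and Prdm14 (0.27, SE 0.23, 95% interval -0.26 to 0.80, adjusted p = 0.31) did not pass. With quantile normalization Kit was called lower in PGCs than in Max knockdown cells (-0.39, adjusted p = 0.015).

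By group means, the order was PGC, Max knockdown, control for Prdm1 (1.18, -3.06 and -3.36), Prdm14 (1.85, 1.58 and 1.23), Itgb3 (3.41, -1.98 and -2.22) and Bmp4. It was PGC, control, Max knockdown for Cxcr4, Alpl, Fut4 and T. For Tfap2c and Kit, Max knockdown cells came first. Max knockdown and control cells differed in the test for Fut4 alone among the 10, and the other neighbours that did not differ were PGC and Max knockdown cells for Prdm14, PGC and control cells for Alpl, and all 3 groups for Kit.

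Genes that work directly with the members were examined whatever their values. Dppa3 (Stella), switched on in nascent PGCs, was at -1.10, -1.40 and -1.69 in Max knockdown cells and 4.66, 4.66 and 4.67 in PGCs, against -3.56, -3.68 and -3.82 in control cells. It rose in both, 4.88-fold in Max knockdown cells (adjusted p = 1.8e-05) and 325-fold in PGCs (adjusted p = 3.9e-09). Nanos3, needed for PGC survival, was at -0.55, -0.60 and -0.59 in Max knockdown cells and 3.71, 3.55 and 3.85 in PGCs, against -0.64, -0.84 and -0.90 in control cells. It was 22.6-fold higher in PGCs (adjusted p = 1.2e-08), and the Max knockdown difference of 0.21 did not pass (adjusted p = 0.14). Of the cofactors, Cbfa2t2, which binds PRDM14, passed in neither (-0.03, adjusted p = 0.93 in Max knockdown cells and -0.28, adjusted p = 0.22 in PGCs). Prmt5, the arginine methyltransferase that partners PRDM1, differed by -0.33 in Max knockdown cells (adjusted p = 0.095) and by 0.37 in PGCs (adjusted p = 0.038), where the spike-in scale gave -0.58. That PGC call was also lost without PGC replicate 1 or 3 or control replicate 1 or 2 (adjusted p from 0.074 to 0.12).

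**Figure D4:**
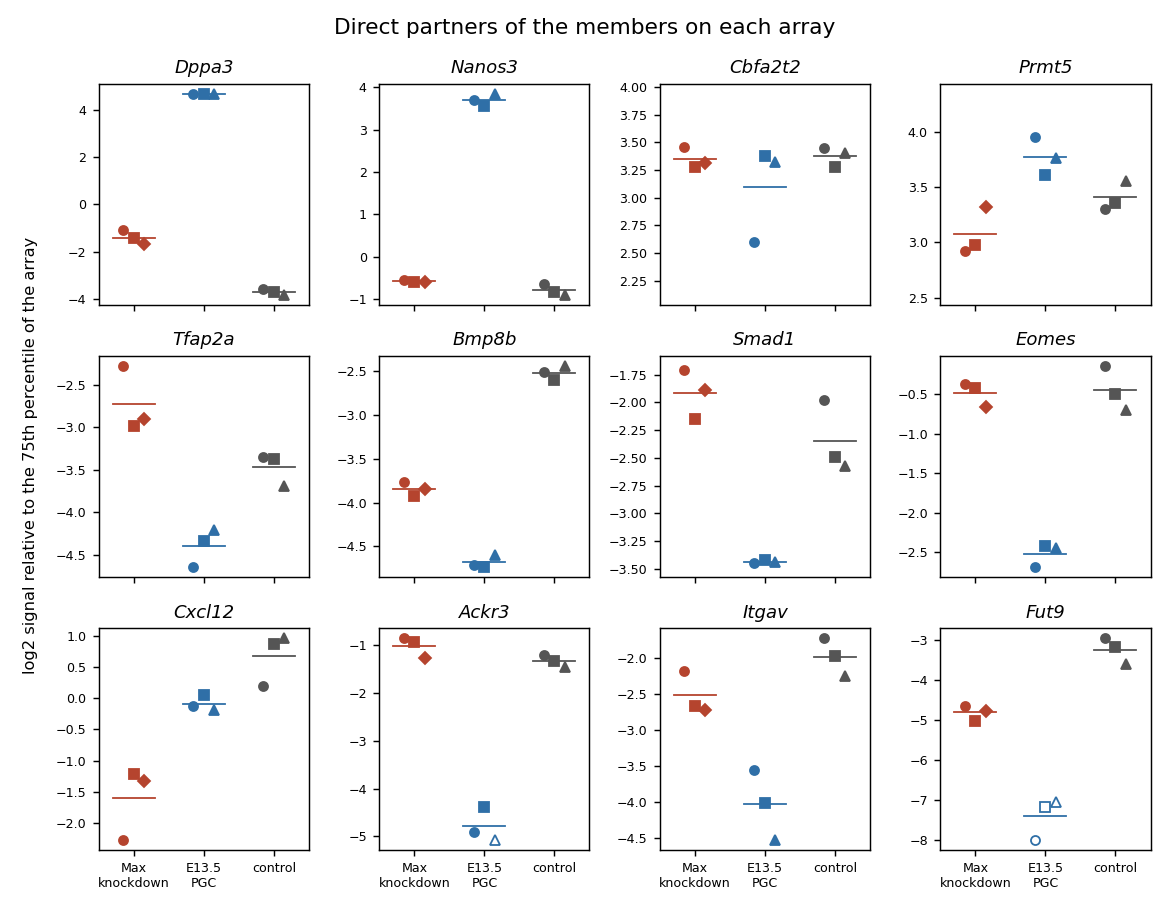
Level of 12 genes that act directly with the members on each array, as log2 signal relative to the 75th percentile of the array, for Max knockdown ES cells, E13.5 PGCs and control ES cells (horizontal lines, group means; open symbols, not well above background). Dppa3 lies between control and PGC levels in Max knockdown cells, Nanos3 is high on PGC arrays, and Cxcl12 and Bmp8b are lower in Max knockdown than in control cells.

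Lists of related genes are given by their counts, and the genes in brackets after a count were named after their values were seen. Over all features tested, 18.2% were higher and 21.9% lower in Max knockdown cells. In PGCs against control cells the shares were 43.2% higher and 32.4% lower. Each count is to be read beside these shares, and no list was tested as a set. Among the 20 partners of specification tested, 2 rose (Dppa3 and Tcl1) and 4 were lower by the fit (Elf3, Ifitm1, Ifitm3 and Wnt3, the last near background in both groups) in Max knockdown cells (median log2 difference -0.09, against -0.07 over all features), and 7 rose and 8 fell in PGCs (median -0.12, against 0.18). Wnt3, whose product induces T in the epiblast, was at 0.72, 0.73 and 0.73 in PGCs, against -5.86, -5.43 and -5.41 in control cells. It was 78.6-fold higher in PGCs by the fit (log2 difference 6.30, adjusted p = 1.3e-08), with 1 of 3 control arrays well above background. In Max knockdown cells Wnt3 was above background on no array, so no fold is given, and normexp on median signals gave a difference of 1.08 (adjusted p = 0.32).

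For BMP signalling, 2 of 23 genes rose (Id3 and Zfp423) and 8 fell in Max knockdown cells (median -0.12), and 10 rose and 8 fell in PGCs (median 0.24). The ligand gene Bmp8b, which acts with Bmp4 in the mouse embryo, was at -3.77, -3.92 and -3.84 in Max knockdown cells and -4.71, -4.74 and -4.60 in PGCs, against -2.51, -2.60 and -2.44 in control cells. It fell 2.51-fold in Max knockdown cells (adjusted p = 2e-05) and 4.50-fold in PGCs (adjusted p = 9.9e-08), where Bmp4 was higher. The BMP target Id3 rose 2.07-fold in Max knockdown cells (adjusted p = 0.0017). Other BMP targets of the list, Id2 (-0.95, adjusted p = 0.0099) and Smad6 (-0.90, adjusted p = 0.0013), were lower there. Id1, Id4, Smad7, Msx1 and Msx2 did not pass in Max knockdown cells. The signal transducer Smad1 was 2.12-fold lower in PGCs (adjusted p = 0.00036), and its Max knockdown difference of 0.43 did not pass (adjusted p = 0.072). That last call is made with the mean of its probes or without Max knockdown replicate 2 or control replicate 1 (adjusted p of 0.026, 0.05 and 0.011). Zfp423, a SMAD cofactor, was 53.5-fold lower in PGCs by the fit (adjusted p = 4.8e-09), with 1 of 3 PGC arrays above background.

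In the KIT and CXCR4 pathway, 2 of 19 genes rose (Grb2 and Cbl) and 9 fell in Max knockdown cells (median -0.22), and 5 rose and 9 fell in PGCs (median -0.17). Cxcl12, the ligand of CXCR4, was at -2.27, -1.22 and -1.33 in Max knockdown cells and -0.12, 0.05 and -0.19 in PGCs, against 0.19, 0.87 and 0.96 in control cells. It was 4.85-fold lower in Max knockdown cells (adjusted p = 0.00056), in which fibroblast markers were lower as well, and their part in this was not tested. In PGCs the difference was -0.76 (adjusted p = 0.043), a call lost without any one PGC array or control replicate 2 or 3 (adjusted p from 0.066 to 0.13). Ackr3, the second CXCL12 receptor, was 11.0-fold lower in PGCs (adjusted p = 4.8e-07, 2 of 3 PGC arrays above background) while Cxcr4 was higher. The kinase Akt1 fell 2.10-fold in Max knockdown cells (adjusted p = 0.00027). In PGCs, the adaptor gene Gab1 was 7.95-fold lower (adjusted p = 5.3e-08). Kitl, the KIT ligand, was on the array but not above background on all arrays of any group.

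Among integrin and adhesion genes, 3 of 19 rose (Itga9, Itgb7 and Pecam1) and 8 fell in Max knockdown cells (median -0.20), and 3 rose (Epcam, Itgb2 and Pecam1) and 15 fell in PGCs. The PGC median was -2.01, or -1.33 with genes below background at their bound, against 0.18 over all features. Itgav, the α chain that pairs with integrin β3, was at -3.55, -4.02 and -4.53 in PGCs, against -1.72, -1.96 and -2.24 in control cells. It was 4.17-fold lower (adjusted p = 9.8e-05), opposite to Itgb3, and -1.09 with the mean of its probes. Itga5 was not above background in PGCs and at least 21.8-fold lower than in control cells (adjusted p = 1.8e-08), and Itgb4 was 12.1-fold lower by the fit (adjusted p = 2.6e-08, 1 of 3 PGC arrays above background). In Max knockdown cells Itga9 rose 2.08-fold (adjusted p = 0.00037). Itga8, an α chain, was 4.01-fold lower there by the fit (adjusted p = 0.00074), with 1 of 3 Max knockdown arrays above background.

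Of 12 genes for fucosyltransferases and Lewis X synthesis, 1 rose (Fut8) and 5 fell (B4galt1, Fut7, Fut9, Fut10 and Slc35c1) in Max knockdown cells (median -0.41), and 6 rose and 6 fell in PGCs (median 0.12). Fut9, which makes Lewis X beside FUT4, was at -4.64, -5.01 and -4.77 in Max knockdown cells, against -2.95, -3.16 and -3.59 in control cells. It fell 2.98-fold there (adjusted p = 0.0019), the direction of Fut4. In PGCs Fut9 was not above background and at least 3.82-fold lower than in control cells (adjusted p = 1.2e-06), the direction opposite to Fut4. Fut7, which builds sialyl Lewis X, was 3.76-fold lower in Max knockdown cells by the fit (adjusted p = 0.0011, 1 of 3 Max knockdown arrays above background) and at least 3.02-fold lower in PGCs (adjusted p = 0.00066). With the mean of the Fut7 probes the Max knockdown difference was -0.83. B3gnt5, which extends the lactoseries glycolipids, was 17.2-fold lower in PGCs (adjusted p = 4.9e-07). Of 6 genes around alkaline phosphatase, 1 was tested, the pyrophosphate transporter gene Ank, and it was lower in Max knockdown cells (-0.49, adjusted p = 0.0068) and in PGCs (-0.99, adjusted p = 3.8e-05).

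In the PRDM family, 4 of 8 rose (Prdm9, Prdm12, Prdm13 and Prdm16) and 2 fell in Max knockdown cells (median 0.59), and 2 rose (Prdm2 and Prdm9) and 3 fell in PGCs (median -0.23). Among those 3, Prdm13 and Prdm16 were above background on no PGC array and on 2 and 1 of 3 control arrays. Prdm12, Prdm13 and Prdm16 were above it on all 3 Max knockdown arrays, no PGC array and 2, 2 and 1 of 3 control arrays. They were thus tested only through the Max knockdown group, where they were higher, and the Max knockdown median of the list includes them. Prdm9, the meiotic methyltransferase that places recombination sites, was at -3.57, -3.78 and -3.67 in Max knockdown cells and -4.02, -3.94 and -3.68 in PGCs, against -5.52, -5.62 and -5.13 in control cells. It rose 3.36-fold in Max knockdown cells (adjusted p = 7.4e-05) and 2.91-fold in PGCs (adjusted p = 1.8e-05) by the fit, with 1 of 3 control arrays above background. The PGC call was lost on the spike-in scale (0.59, adjusted p = 0.37) and both calls were lost with normexp on median signals (adjusted p = 0.18 in Max knockdown cells and 0.46 in PGCs). In the AP-2 family 2 genes were tested besides Tfap2c, Tfap2a and Tfap2e, and Tfap2e passed in neither comparison. Tfap2a rose by 0.75 in Max knockdown cells (adjusted p = 0.019), a call lost without control replicate 3 (adjusted p = 0.065). In PGCs it was lower by the brightest probe (log2 difference -0.93, adjusted p = 0.0028) and not by the mean of its probes (-0.13, adjusted p = 0.41).

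In the T-box family, 3 of 11 genes rose (Mga, Tbx2 and Tbx21) and 3 fell (Tbx1, Tbx4 and Tbx6) in Max knockdown cells (median -0.24), and 2 rose (Tbx2 and Tbx4) and 5 fell (Tbr1, Tbx1, Tbx3, Tbx15 and Tbx21) in PGCs (median 0.01). Tbx1 fell 3.91-fold (adjusted p = 3e-05) and Tbx6 2.11-fold (adjusted p = 0.00057) in Max knockdown cells, calls lost with normexp on median signals (-0.87, adjusted p = 0.28 for Tbx1 and -0.08, adjusted p = 0.9 for Tbx6). Tbx3, which supports ES cell self-renewal, was at -5.16, -5.68 and -6.64 in PGCs, against 3.14, 2.58 and 2.78 in control cells. The fit gave a log2 difference of -8.66 (adjusted p = 8.7e-08), with 1 of 3 PGC arrays above background, so its size is limited by the background. Tbx4 was 12.7-fold higher in PGCs (adjusted p = 1.1e-06). Eomes, a T-box factor of the primitive streak counted with the specification partners, was 4.22-fold lower in PGCs (adjusted p = 3.8e-06) and differed by -0.04 in Max knockdown cells (adjusted p = 0.86).

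Genes of the primitive streak and T targets were split, with 4 of 13 higher (Axin2, which was above background on 1 of 3 arrays in each ES group, Cdx1, Lef1 and Mesp2) and 5 lower (Fgf8, Foxa2, Gsc, Nodal and Wnt8a) in Max knockdown cells (median 0.15) and 5 higher (Axin2, Evx1, Fgf8, Lhx1 and Sp5) and 5 lower (Cdx1, Dll1, Gsc, Nodal and Wnt8a) in PGCs (median -0.13). Gsc was above background on 3 of 3 control arrays and on no other array. Evx1 was above it on 3 of 3 PGC arrays, 1 Max knockdown array and no control array. Both were thus tested only through the group where they were highest. Foxa2 was above background on 1 of 3 Max knockdown arrays, and Wnt8a on no PGC array. Lef1, a WNT effector, rose 2.75-fold (adjusted p = 0.00025) and Cdx1 rose 2.26-fold (adjusted p = 0.00083) in Max knockdown cells. Lhx1 was 16.8-fold (adjusted p = 1.2e-08) and Sp5 21.3-fold (adjusted p = 3.3e-07) higher in PGCs. PRDM14 represses FGF signalling and de novo DNA methylation in mouse cells. Of 10 genes listed around these processes, which include the demethylation enzyme gene Tet2, 0 rose and 4 fell (Dnmt3a, Dnmt3b, Fgfr1 and Pou3f1) in Max knockdown cells (median -0.27), while 1 rose (Fgfr2) and 8 fell in PGCs (median -1.88). The de novo methyltransferase Dnmt3b was at 0.66, 0.63 and 0.70 in PGCs, against 3.71, 3.71 and 3.73 in control cells, 8.28-fold lower (adjusted p = 1.6e-08). Pou3f1, an epiblast and neural factor, was 2.47-fold lower in Max knockdown cells (adjusted p = 9.9e-05) and 15.4-fold lower in PGCs (adjusted p = 2.5e-08). On the spike-in scale, where 1006 features passed in Max knockdown cells, the calls there of Wnt3, Bmp8b, Id3, Akt1, Itga9, Tfap2a, Tbx6, Lef1, Cdx1 and Pou3f1 were lost with their direction kept. With normexp on median signals the Max knockdown calls of Id3 (0.71), Lef1 (1.10), Cdx1 (0.81) and Tfap2a (1.00) were lost, and those of Bmp8b (0.04), Itga8 (0.34), Fut7 (0.41) and Fut9 (0.23) were lost with the sign turned. The PGC calls of Bmp8b (-0.93), Fut9 (-1.25), Cxcl12 (-0.72), Itgav (-1.14), Smad1 (-0.61), Prmt5 (0.34) and Tfap2a (-0.29) were lost as well.

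For the 4 members whose group means spanned over 2 log2 units, the genes of most similar profile over the 9 arrays were sought by the root mean square difference of centred levels. Prdm1 was closest to Prss28 (0.14) and Zfp750 (0.16), whose PGC means were -0.05 and -0.32, against -4.22 and -4.39 in Max knockdown cells. Tfap2c was closest to Klf2 (0.12), which averaged 1.25 in PGCs, 3.63 in Max knockdown cells and 3.12 in control cells, and to Lrch1 (0.14). Cxcr4 was closest to Ccdc3 (0.22) and Ctnnd2 (0.23), and Itgb3 to Rnf182 (0.19) and Slc16a4 (0.22). In each of these profiles the widest gap lay between PGCs and the ES groups, which follows from the choice of members and of genes like them.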

How the data were processed

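RNA of 3 arrays per group was labelled with Cy3 from 100 ng, per the labels' protocols. The intensity of each spot was deposited as scanner output of Agilent Feature Extraction 10.7.3.1, already background-subtracted and detrended, per the file headers. The deposited value table holds log2 values of the same arrays with scale and centring not stated. Its columns ran in the same direction as the scanner values (r across probes of 0.99994 to 0.99999 once probes were centred), and their medians were -0.12, 0.00 and 0.00 in Max knockdown, 0.00, 0.34 and 0.39 in PGC and -0.02, -0.07 and 0.00 in control arrays.

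From the intensities, replicate spots were averaged and the log2 values set against the array's 75th percentile. Controls and 65 probes with an outlier flag were left out of 39429, and 26012 probes were named by RefSeq accession. The brightest probe stood for a gene, and a gene was tested if well above background on all arrays of a group. One limma 3.58.1 model (R 4.3.3) over 9 arrays gave differences, 95% intervals and p-values adjusted by Benjamini-Hochberg over 20443 features, with a threshold of 0.05. "At least" folds are set against the lowest detected signal. On simulated data the model recovered 69% of 2-fold and 91% of 4-fold changes. There only 200 features changed, far fewer than passed in the data, so these shares do not carry over to the tests above. An exact permutation test of 3 against 3 arrays cannot give a p below 0.1. Promoters came from the RefSeq table of GRCm38.p6, while the array headers name mm9.

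Named were the members, Max, Ddx4, Pou5f1, direct partners, and the 2 genes of each list with the smallest p that passed at 2-fold or more in each comparison with control cells, of which a few are not reported here. Alternatives were other scaling, background correction (normexp, on spot medians), filters, probe rules, variance models, blocks and the deposited table. Members and lists were chosen with earlier results of these data known.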

Additional observations from a re-analysis of the deposited data

How the results depend on the processing

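Among differences of named genes recomputed under the alternatives, 1669 values kept direction and side of the threshold, 84 kept direction and lost their call, 19 gained one and 38 changed sign. In Max knockdown against control cells, spike-in scaling gave 1006 calls (71.4% higher, against 45.3% of 8205) and normexp on median signals 884 (63.9% higher). A normexp fit without the 20 lowest spots of each array, added after seeing the data, gave 6885 (48.4% higher). In PGCs spike-in scaling gave 8623 calls against control cells and 8278 against Max knockdown cells (12.1% higher, against 58.8% of 15593), with the median of all features shifted by -0.97 in the second, and normexp gave 6014 and 7195. Under either, 4 members passed in each PGC comparison. Members called in Max knockdown cells were 2 with quantile normalization, the filter on all 9 arrays or an intensity trend, and 0 with spike-in scaling, either normexp, no filter or the mean of probes. On leaving out 1 array they were 0 to 4, with 4 without control replicate 1 (Prdm14 0.62, Kit 0.40, Itgb3 0.44 and Bmp4 0.77) and 0 without Max knockdown replicate 1 or 2, PGC replicate 1 or 2, or control replicate 2 or 3. Kit passed under 4 alternatives other than leaving out an array. With only the 2 groups compared, Kit passed (adjusted p = 0.045) and Fut4 did not (adjusted p = 0.073), so the count stayed at 1. E-boxes were found in 5 members as CANNTG, against 1 as CACGTG.

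Changes of sign in Max knockdown cells under normexp were Pou5f1 -0.36, Wnt3 1.08, Bmp8b 0.04, Itga8 0.34, Fut7 0.41, Fut9 0.23 and Itgav 0.08, and Cxcr4 was 0.03 in the added normexp fit. Tfap2c was -0.08, Kit -0.02, Cxcr4 1.05, Fut4 0.69 and T 0.93. Cbfa2t2 was 0.04 with quantile normalization, and Eomes 0.14 with the mean of probes. On leaving out 1 array, differences in Max knockdown cells ranged from -0.31 to 0.24 for Cxcr4, -0.01 to 0.11 for Pou5f1, -0.08 to 0.01 for Cbfa2t2 and -0.17 to 0.11 for Eomes, and in PGCs against control cells from -0.18 to 0.01 for Pou5f1. On the spike-in scale, PGCs against control cells turned Prdm14 to -0.33, Kit to -0.84, Alpl to -0.80, Fut4 to -0.17, T to -0.04, Max to -0.10 and Prmt5 to -0.58, and quantile normalization turned Kit to -0.04. Against Max knockdown cells it turned Prdm14 to -0.70, Alpl to -0.61 and Bmp4 to -0.23, while normexp turned Kit to 0.09, Fut4 to -0.17 and T to -0.35. The causes were not tested.

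The labels' replicate numbers are not stated to pair arrays. With the replicate block, 6098 features passed in Max knockdown against control cells, 15327 in PGCs against control and 14724 in PGCs against Max knockdown cells, Cxcr4 was 0.25 and Cbfa2t2 0.05 in Max knockdown cells, and Bmp4 lost its call against Max knockdown cells (adjusted p = 0.055). Tfap2a lost its Max knockdown call (adjusted p = 0.07). Deviations from group means correlated at 0.37 and 0.39 for the replicate 1 and 2 arrays of both ES groups, which shared a slide. Between PGC and ES arrays of the same number, which lay on different slides, the correlations were -0.03 to 0.02. The ES arrays that share the other slide differ in number and were not compared. With slide as a block 9316 features passed in Max knockdown against control cells, and as a random block (correlation 0.288) 14764 and 14977 in the PGC comparisons. Values of T and Cxcr4 in ES cells lay near background, which limits their precision.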

Other observations

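Set against Max knockdown cells, PGCs had 14 of 19 integrin and adhesion genes lower and 4 higher (median log2 difference -1.32, against 0.21 over all features tested). Genes of FGF signalling and of DNA methylation and its removal were lower in 8 of 10 and higher in 2 of 10 (median -1.64). The KIT and CXCR4 pathway had 10 of 19 genes higher and 8 lower (median 0.42). Over all features tested in this comparison, 44.9% were higher and 31.4% lower. Dppa3 was 66.7-fold higher in PGCs than in Max knockdown cells (limma adjusted p = 1.3e-08), and Nanos3 19.5-fold (adjusted p = 1.5e-08).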
